A study of Mus musculus with 12 samples.

Results

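The genes described are those of DNA replication and of nucleotide synthesis. They were listed by symbol, 48 in all, and each was read from its probe sets on a mouse 3′ expression array. Of these, 46 carried at least 1 probe set of their own among the 12393 genes of the array, and for each the probe set with the highest mean signal over all arrays stood for the gene. Gins2 and Chaf1a were not analysed here. The groups were mouse embryonic fibroblasts (MEFs, strain C57BL/6) that all carried a lentivirus for M2rtTA, a transactivator that switches transgenes on in the presence of doxycycline. TF group 1 also received viruses for GATA4, TBX5 and MEF2C, TF group 2 received these and Mesp1 and SMARCD3, TF group 3 received these 5 and MYOCD and SRF, and the negative control received M2rtTA alone. All factors were human cDNAs except the mouse Mesp1. Every group was kept for 7 days with doxycycline, in a medium to which the methods add valproic acid and extra serum, and RNA was taken from whole cultures, with 3 biological replicates and hence 3 arrays per group.

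Before a cell copies its DNA, the origin recognition complex, CDC6 and CDT1 load the ring-shaped MCM2-7 helicase onto origins, and the kinase CDC7 with its activator DBF4, together with CDC45 and the GINS complex, turns it into an active helicase as S phase begins. At the fork, RPA coats the opened strands, primase with polymerase alpha lays the primers, the clamp loader RFC places the sliding clamp PCNA, and polymerases delta and epsilon extend the strands with deoxynucleotides that ribonucleotide reductase and the thymidine enzymes supply. Many of these genes are transcribed in late G1 and S phase through E2F sites in their promoters and are held low in resting cells by RB-family proteins. Fibroblasts in culture divide, while cardiomyocytes, the cell type towards which the factors were meant to push the MEFs, leave the cell cycle around birth.

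Promoters are shown here to put letters beside the measurements. RefSeq windows (build GRCm38.p6) from 250 bases before to 50 bases after a transcription start were matched to 40 of the 48 symbols, in 47 windows. No window was matched for Gins2, Pole, Rfc2, Prim2, Gmnn, Gins1, Mcm4 and Tipin. The windows were searched on both strands for the E2F words TTTCCCGC, TTTGGCGC, TTTCGCGC and TTTGCCGC, some of which overlap each other when read from opposite strands, and for CCAAT, the word bound by NF-Y. An E2F word was present in 12 of the 47 windows (25.5%), each of another gene, against 744 of all 32851 windows (2.26%). CCAAT was present in 55.3% of the windows of these genes and in 37.4% of all windows, and both words in 14.9% and in 0.962%. The first 3 windows shown belong to the members with the largest fall of their role whose window held an E2F word: Cdc6 (chr11:98907901-98908200, plus strand), Mcm5 (chr8:75109259-75109558, plus strand) and Lig1 (chr7:13278576-13278875, plus strand). Mcm6 (chr1:128359656-128359955, minus strand), with 3 E2F words, and Rpa3 (chr6:8259092-8259391, minus strand), with none, were added after their values had been seen, to set a gene whose signal fell beside one that was measured well above the dim level (a signal of 32) and was not called. Capitals mark matches to an E2F word or to CCAAT on either strand.
Cdc6: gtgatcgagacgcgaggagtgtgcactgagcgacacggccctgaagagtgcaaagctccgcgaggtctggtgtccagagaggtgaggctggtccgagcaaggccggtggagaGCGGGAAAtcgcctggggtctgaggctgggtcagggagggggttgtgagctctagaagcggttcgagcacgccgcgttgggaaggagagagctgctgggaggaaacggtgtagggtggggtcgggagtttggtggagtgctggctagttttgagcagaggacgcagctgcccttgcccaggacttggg
Mcm5: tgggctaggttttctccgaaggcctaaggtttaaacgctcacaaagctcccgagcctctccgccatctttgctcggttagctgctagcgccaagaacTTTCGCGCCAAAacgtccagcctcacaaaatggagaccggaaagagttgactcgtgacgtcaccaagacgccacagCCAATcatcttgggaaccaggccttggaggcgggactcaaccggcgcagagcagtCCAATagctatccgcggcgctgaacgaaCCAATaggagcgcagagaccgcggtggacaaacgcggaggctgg
Lig1: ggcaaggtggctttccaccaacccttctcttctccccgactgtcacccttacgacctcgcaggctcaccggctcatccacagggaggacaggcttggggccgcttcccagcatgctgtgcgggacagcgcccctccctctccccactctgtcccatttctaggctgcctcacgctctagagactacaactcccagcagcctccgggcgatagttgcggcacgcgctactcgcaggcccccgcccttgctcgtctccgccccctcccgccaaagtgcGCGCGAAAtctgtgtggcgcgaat
Mcm6: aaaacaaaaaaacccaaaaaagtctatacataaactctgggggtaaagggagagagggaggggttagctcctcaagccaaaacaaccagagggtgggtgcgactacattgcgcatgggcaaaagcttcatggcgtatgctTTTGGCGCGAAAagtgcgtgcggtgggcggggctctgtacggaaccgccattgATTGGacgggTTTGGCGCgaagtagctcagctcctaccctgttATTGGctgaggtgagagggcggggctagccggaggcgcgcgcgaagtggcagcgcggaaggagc
Rpa3: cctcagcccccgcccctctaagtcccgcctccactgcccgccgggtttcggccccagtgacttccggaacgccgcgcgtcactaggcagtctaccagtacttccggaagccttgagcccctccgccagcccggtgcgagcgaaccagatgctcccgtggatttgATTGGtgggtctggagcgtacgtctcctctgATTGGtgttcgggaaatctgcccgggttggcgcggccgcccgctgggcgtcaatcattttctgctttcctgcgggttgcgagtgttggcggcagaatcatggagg
In the Mcm5 window the E2F words on opposite strands share bases, 2 copies of CCAAT follow them before the start, and 1 lies after it. The Mcm6 window also holds a pair of overlapping E2F words, with a further one and 2 copies of CCAAT nearer the start. The Rpa3 window holds 2 copies of CCAAT and no E2F word of those searched. The other genes with an E2F word in a window were Cdt1, Mcm3, Mcm7, Orc1, Pola1, Pold1, Pole2 and Rfc3. No E2F word was found in the windows of Tk1, Prim1, Asf1b, Rfc5 and Rpa2, whose falls were also the largest of their roles. A match is a stretch of letters and was not tested as a binding site.

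The deposited values are 1 linear signal per probe set and array, with array medians between 131.5 and 149.7 and a signal below 32 (called dim here) for 20.4% to 24.1% of the probe sets. Over all probe sets, replicates of a group correlated with r between 0.96 and 0.966, and TF arrays correlated with negative control arrays with r between 0.922 and 0.933. The cultures had the markers of fibroblasts. None of 10 such genes, among them Col1a1, Vim and Thy1, was dim in any group, and their summed signal ran from 84100 to 90800 in TF group 1, from 70100 to 74600 in TF group 2, from 70400 to 73100 in TF group 3 and from 76200 to 79500 in the negative control. Called lower in TF groups 1, 2 and 3 were 1, 3 and 3 of the 10 (8.93%, 10.1% and 9.84% of all genes), and none was higher. In TF group 3, S100a4 was at 11.93 to 12.05 on the log2 scale (control 13.21 to 13.38). Pdgfra was at 9.41 to 9.46 there (control 10.58 to 10.89). The sum over 5 cardiomyocyte markers was 1940 to 2070, 2350 to 2440 and 8250 to 9460 in TF groups 1, 2 and 3, and 242 to 310 in the negative control, with 1, 1 and 0 of the 5 dim in TF groups 1, 2 and 3 and 1 in the negative control. The sum over 5 epithelial markers was 829 to 881, 850 to 904 and 731 to 779 in the TF groups and 527 to 601 in the negative control. That sum rose through Krt18 (2.16, 2.34 and 1.6 on the log2 scale), while Krt19 changed by -1.16 and -1.45 in TF groups 1 and 2 and by -0.38, not called, in TF group 3. In TF groups 1, 2 and 3 and the negative control, 7 macrophage markers summed to 377 to 414, 520 to 530, 531 to 546 and 497 to 581. Csf1r was the brightest of the 7 on every array, so the sum says little of the others. Of the 7, 1 was called lower in each TF group and none higher, and the change was negative for 6, 3 and 2. Lyz2 was at 3.46 to 5.89 on the log2 scale on the TF arrays (control 6.41 to 6.73). Spiked bacterial poly-A transcripts read 8.16 on the log2 scale on the 9 TF arrays and 7.35 on the negative control arrays.

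Most replication genes had lower signals in each TF group than in the negative control. A gene was called when limma, fitted to 22626 probe sets without the controls, gave it a fold of more than 1.5 and a p-value that stayed under 0.05 after the adjustment of Benjamini and Hochberg. By this rule 43 of the 46 genes were lower in TF group 1, where 8.93% of all genes were called lower. In TF group 2 there were also 43 lower (10.1% of all genes), and in TF group 3 again 43 (9.84% of all genes). No member was called higher in any of these comparisons. The median log2 change of the members was -1.67 in TF group 1, -1.89 in TF group 2 and -1.76 in TF group 3, that is 3.17-fold, 3.71-fold and 3.39-fold lower, beside 0.07, 0.06 and 0.05 over all genes. Lower in all 3 TF groups were 42 members (6.2% of all genes). For 43 members all 9 TF arrays lay below all 3 negative control arrays (16.1% of all genes). The fall was over 2-fold in all 3 TF groups for 38 members and over 4-fold for 13. All genes were not counted at these 2 cuts, so these counts have no share to be set against.

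**Figure D1:**
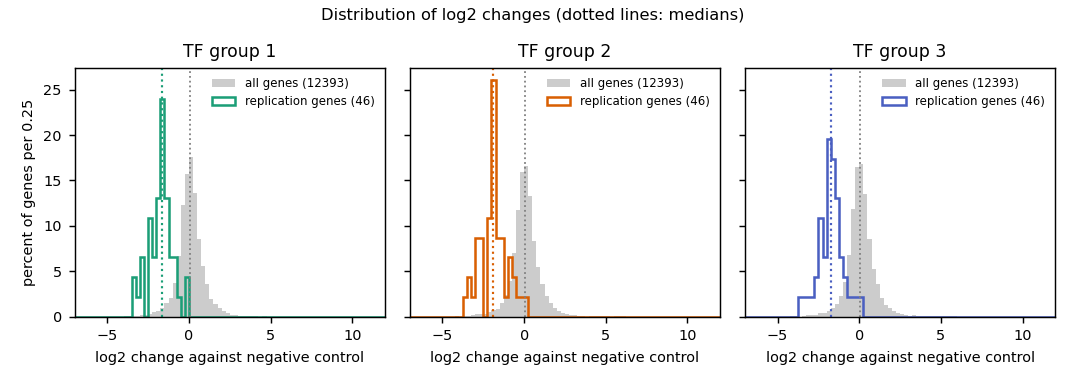
Distribution of log2 changes against the negative control in TF groups 1, 2 and 3, as the percent of genes in each step of 0.25, for all 12393 genes (grey) and for the 46 replication and nucleotide synthesis genes (coloured outline). Dotted lines mark the medians, which lie at 0.07, 0.06 and 0.05 for all genes and at -1.67, -1.89 and -1.76 for the replication genes.

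The 3 comparisons share the negative control arrays, so that the equal counts are not 3 separate observations. RNA of whole cultures was measured, and a smaller share of cells in S phase cannot be told apart from less of these RNAs in every cell. As sums, the cardiomyocyte markers (mostly Tnnt2 in TF groups 1 and 2) and, through Krt18, the epithelial ones were higher in all 3 TF groups. Their part in the fall of the replication genes was not tested. When each array was scaled to its poly-A spikes, the median of all genes moved to -0.83, -0.68 and -0.74 in TF groups 1, 2 and 3 and that of the members to -2.57, -2.63 and -2.55. Such a scaling adds 1 constant to all log2 signals of an array, so that the members' medians relative to all genes (-1.73, -1.95 and -1.81) are the same under both by construction.

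The MCM2-7 helicase fell as a set of subunits. All 6 genes were called lower in TF groups 1 and 3 and 5 of 6 in TF group 2, with median log2 changes of -2.04, -2.33 and -2.09 in TF groups 1, 2 and 3. Mcm5 moved the most. Its signals were 84.3, 89.6 and 81.9 in TF group 1, 67.7, 64.9 and 72.9 in TF group 2, 90.6, 63.9 and 86.5 in TF group 3, and 676, 603 and 666 in the negative control. Every TF array was thus several times dimmer than every control array, and TF group 3 overlapped TF groups 1 and 2, which did not overlap each other. The log2 changes of Mcm5 were -2.93, -3.24 and -3.03 (SE 0.12 each), or 7.6-fold, 9.46-fold and 8.16-fold lower (adjusted p = 2.39e-07, 9.62e-08 and 1.69e-07). Mcm3, Mcm4, Mcm6 and Mcm7 were between 3.12-fold and 7.31-fold lower in the 3 TF groups, with Mcm6 at -2.39, -2.87 and -2.30 on the log2 scale and Mcm7 at -1.76, -2.0 and -1.88.

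Mcm2 stood apart on its brighter probe set. It read 284, 398 and 237 in TF group 1, 451, 537 and 419 in TF group 2, 182, 232 and 288 in TF group 3, and 774, 597 and 482 in the negative control. TF group 2 overlapped the control here, and the difference of -0.38 ± 0.25 (SE) was not called (adjusted p = 0.264), while TF groups 1 and 3 were at -1.02 and -1.40 (adjusted p = 0.00833 and 0.00135). The replicates of this probe set scattered more than those of the other helicase genes, with an SD of 0.34 on the log2 scale among the control arrays. The other Mcm2 probe set, which was a little dimmer on average, had an SD of 0.08 among the control arrays and log2 changes of -1.51, -1.71 and -1.65 in TF groups 1, 2 and 3, called in all of them (adjusted p = 2.92e-06, 1.07e-06 and 1.49e-06).

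Among the 11 genes of origin licensing and firing, 10 were lower in TF group 1, 11 in TF group 2 and 10 in TF group 3. The largest fall was that of Cdc6, the ATPase that works with the origin recognition complex in loading the helicase. Cdc6 signals were 57.7, 74.8 and 70.7 in TF group 1, 42.8, 49.1 and 56.2 in TF group 2, 59.6, 53.1 and 83.6 in TF group 3, and 518, 485 and 511 in the negative control. The changes were -2.91, -3.36 and -2.97 on the log2 scale (SE 0.17), 7.5-fold, 10.3-fold and 7.86-fold (adjusted p = 1.51e-06, 4.77e-07 and 1.15e-06). Cdt1, its partner in loading, read 398, 457 and 400, then 278, 263 and 305, then 348, 354 and 414 in TF groups 1, 2 and 3, and 1870, 2090 and 2030 in the negative control. The 3 arrays of TF group 2 were the lowest of the 12 for Cdt1. Its inhibitor geminin (Gmnn) moved the same way as Cdt1, by -1.68, -1.98 and -1.81.

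Mcm10, which acts in turning the loaded helicase into a moving one, read 69.2, 40 and 44.8 in TF group 1, 56.1, 60.4 and 56.7 in TF group 2, 64.1, 55.4 and 79.1 in TF group 3, and 340, 351 and 349 in the negative control. Control arrays were several times brighter than TF arrays, and the log2 changes were -2.80, -2.59 and -2.40. Dbf4, the activator of the kinase Cdc7, read 402, 371 and 366 in TF group 1, 357, 355 and 388 in TF group 2, 389, 430 and 444 in TF group 3, and 1620, 1440 and 1460 in the negative control. For Cdc7 itself the signals were 103, 111 and 115, then 141, 98.2 and 78.1, then 101, 98.7 and 118 in TF groups 1, 2 and 3, and 357, 348 and 328 in the negative control. On these probe sets kinase and activator were both below the control on each TF array, Dbf4 by -1.99, -2.04 and -1.84 and Cdc7 by -1.65, -1.74 and -1.70. The other Cdc7 probe set, dimmer on average, overlapped the control in TF groups 1 and 2 and was not called in any TF group. Its changes were -0.79, -0.65 and -0.86 (adjusted p = 0.254, 0.354 and 0.219). Cdc45 (-1.83, -2.18 and -1.87) and Gins1 (-2.42, -2.54 and -2.04), both parts of the active helicase, fell too.

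The subunits of the origin recognition complex differed. Orc1, the subunit known to come and go with the cell cycle in human cells, fell (-1.79, -1.93 and -1.62 on the log2 scale in TF groups 1, 2 and 3), and so did Orc6 (-2.03, -2.08 and -2.04). Orc2 read 236, 257 and 253 in TF group 1, 233, 241 and 211 in TF group 2, 292, 269 and 228 in TF group 3, and 374, 382 and 324 in the negative control. All TF arrays lay below all control arrays, but the changes were small, -0.53 ± 0.10, -0.66 ± 0.10 and -0.46 ± 0.10 (SE), and only that of TF group 2 passed the fold change of 1.5 (adjusted p = 0.00277, 0.00073 and 0.00637). Another Orc2 probe set was called lower in all 3 TF groups (-0.85, -0.67 and -0.63). A further one was called only in TF group 2 (-0.51, -0.71 and -0.54). Orc3, Orc4 and Orc5, which are not among the 46, were not called in any TF group, with log2 changes between -0.37 and 0.06. After scaling to the spikes Orc3, Orc4 and Orc5 were called lower in all 3 TF groups (between -1.13 and -0.73). Under that scaling 55.3%, 44.4% and 48.4% of all genes were called lower in TF groups 1, 2 and 3. The medians of all genes there were -0.83, -0.68 and -0.74, so these calls are not particular to the 3 genes.

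**Figure D2:**
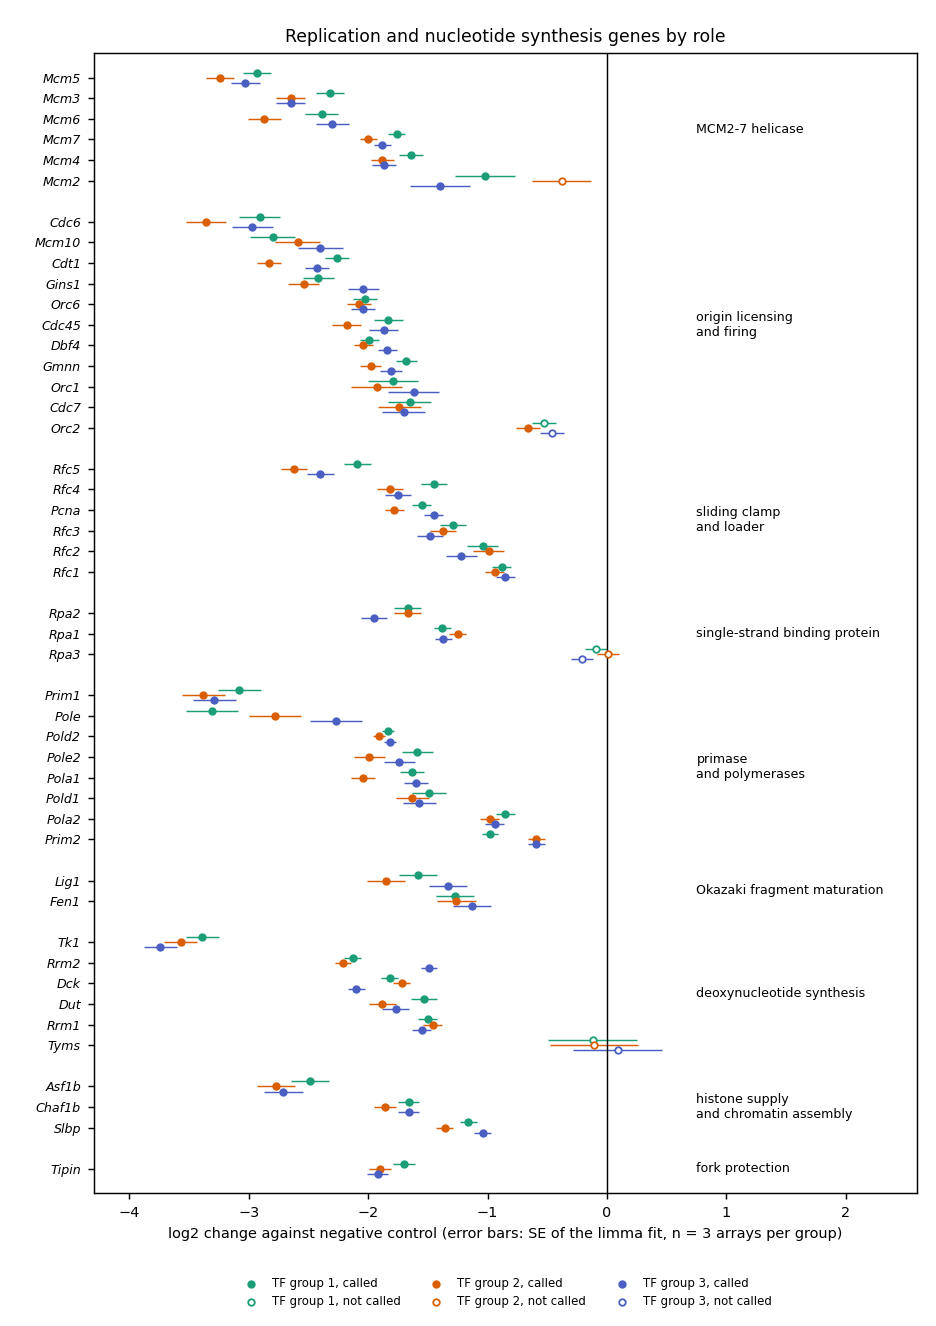
Log2 change of each of the 46 genes against the negative control in TF group 1 (green), TF group 2 (orange) and TF group 3 (blue), sorted by role, with the SE of the limma fit over 3 arrays per group. Filled points were called and open points were not, and only Mcm2, Orc2, Rpa3 and Tyms have open points.

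The sliding clamp and its loader were lower throughout, with all 6 genes called in each TF group and median log2 changes of -1.37, -1.57 and -1.47. Pcna, the clamp that holds polymerases on the template, read 1980, 2180 and 2230 in TF group 1, 1860, 1740 and 1870 in TF group 2, 2040, 2460 and 2350 in TF group 3, and 5870, 6330 and 6530 in the negative control, and was lower by -1.55, -1.78 and -1.45. Within the RFC loader the fall was uneven. Rfc5 read 216, 186 and 213 in TF group 1, 164, 119 and 146 in TF group 2, 173, 158 and 163 in TF group 3, and 892, 826 and 892 in the negative control, and was 4.25-fold, 6.13-fold and 5.29-fold lower (adjusted p = 9.48e-07, 2.02e-07 and 3.69e-07). Rfc1, the large subunit, read 281, 269 and 283, then 287, 268 and 247, then 267, 276 and 311 in TF groups 1, 2 and 3, and 521, 521 and 491 in the negative control. No TF array reached a control array for either gene, but the log2 changes of Rfc1 were only -0.88, -0.94 and -0.85. Rfc2, Rfc3 and Rfc4 lay between, from -0.99 to -1.82.

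RPA, the single-strand binding protein, has 3 subunits that work as 1 complex, and their RNAs did not move together. Rpa2 read 241, 194 and 217 in TF group 1, 218, 238 and 196 in TF group 2, 177, 191 and 168 in TF group 3, and 611, 724 and 736 in the negative control (-1.67, -1.67 and -1.95 on the log2 scale). Rpa1, the large subunit, was lower by -1.38, -1.25 and -1.37. Rpa3, the small subunit, read 527, 560 and 585 in TF group 1, 600, 577 and 611 in TF group 2, 462, 558 and 521 in TF group 3, and 541, 647 and 593 in the negative control. These groups overlapped, and the differences of -0.09, 0.01 and -0.21 (SE 0.09) were not called (adjusted p = 0.486, 0.95 and 0.0986). Rpa3 has 1 probe set on the array. With arrays scaled to the spikes its changes became -0.99, -0.73 and -1.0 (adjusted p = 0.00524, 0.0265 and 0.00569), close to the shift of all genes under that scaling.

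All 8 genes of primase and the replicative polymerases were lower in each TF group. Prim1, the catalytic subunit of primase, read 160, 173 and 209 in TF group 1, 162, 130 and 148 in TF group 2, 137, 132 and 209 in TF group 3, and 1450, 1590 and 1540 in the negative control. That is 8.48-fold, 10.4-fold and 9.78-fold lower (adjusted p = 1.22e-06, 5.18e-07 and 7.33e-07). Prim2, the other primase subunit, read 233, 240 and 251 in TF group 1, 312, 322 and 314 in TF group 2, 333, 302 and 311 in TF group 3, and 517, 474 and 440 in the negative control. The groups of Prim2 also stood apart from the control, at -0.98, -0.59 and -0.59 (SE 0.07), with TF groups 2 and 3 only just past the fold change of 1.5. Leaving out negative control replicate 1 took both of these changes to -0.53, below that fold, and leaving out TF group 2 replicate 1 or TF group 3 replicate 2 took the change of that group to -0.58 or -0.56. The other Prim2 probe set, dimmer on average, was at 7.47 to 7.81 and 7.63 to 7.74 on the log2 scale in TF groups 2 and 3 (control 7.89 to 8.59). With the mean of its probe sets Prim2 was at -0.57 and -0.53 in TF groups 2 and 3 and was not called there.

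Pole, the catalytic subunit of polymerase epsilon, read 28.9, 43.9 and 35.7 in TF group 1, 67.8, 46.3 and 43.3 in TF group 2, 59.8, 75.4 and 86.8 in TF group 3, and 374, 311 and 378 in the negative control. It was far lower on each TF array, by -3.31, -2.78 and -2.27 on the log2 scale (SE 0.22), and its TF signals lay near the level called dim. Pole2, its partner, was lower by -1.59, -1.99 and -1.74. Pola2, the accessory subunit of polymerase alpha, read 140, 123 and 127, then 118, 125 and 114, then 112, 125 and 131 in TF groups 1, 2 and 3, and 235, 220 and 248 in the negative control (-0.85, -0.98 and -0.94). The catalytic subunit Pola1 was lower by -1.63, -2.04 and -1.60, and the polymerase delta subunits Pold1 and Pold2 by between -1.49 and -1.91. Pold2 had the smallest SE of the 46 genes, 0.05.

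Okazaki fragment maturation was represented by Lig1, the ligase that joins the fragments, and Fen1, the nuclease that trims their flaps. Lig1 read 198, 185 and 280 in TF group 1, 163, 171 and 211 in TF group 2, 269, 270 and 237 in TF group 3, and 714, 641 and 594 in the negative control. Fen1 read 242, 355 and 275, then 351, 265 and 261, then 311, 338 and 302 in TF groups 1, 2 and 3, and 619, 688 and 775 in the negative control. No TF array reached a control array for either gene. Lig1 was lower by -1.58, -1.85 and -1.33 and Fen1 by -1.27, -1.26 and -1.13 (SE 0.16 for both).

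Of the 6 genes of deoxynucleotide synthesis, 5 were lower in every TF group. Tk1, the thymidine kinase of dividing cells, had the largest fall of all 46 genes in each of the 3 comparisons. It read 122, 122 and 124 in TF group 1, 115, 90.3 and 122 in TF group 2, 80.9, 95.8 and 116 in TF group 3, and 1200, 1380 and 1290 in the negative control, which is 10.5-fold, 11.9-fold and 13.4-fold lower (adjusted p = 2.39e-07, 1.29e-07 and 1.22e-07). The ribonucleotide reductase subunits Rrm1 and Rrm2 were lower by -1.50, -1.46 and -1.55 and by -2.13, -2.21 and -1.49. Dut, which breaks down dUTP, was lower by -1.53, -1.88 and -1.77, and Dck, a salvage kinase, by -1.82, -1.72 and -2.10.

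Tyms, thymidylate synthase, was the exception of this role on the probe set that stood for it. That probe set was dim, with 33.5, 23.2 and 24.7 in TF group 1, 46.6, 16.7 and 25.2 in TF group 2, 26.1, 27.7 and 40.8 in TF group 3, and 39.8, 22.8 and 27.1 in the negative control. No level or difference could be read from it (-0.12, -0.11 and 0.09, each with an SE of 0.37). A further probe set is annotated to both Tyms and its pseudogene Tyms-ps, was therefore not counted, and cannot be assigned to either. It averaged 8.46, 8.26 and 8.31 on the log2 scale in TF groups 1, 2 and 3 and 10.41 in the negative control, a change of -1.95, -2.14 and -2.10 (SE 0.08).

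The chromatin genes measured were all lower. Asf1b, a chaperone of histones H3 and H4 in dividing cells, read 212, 187 and 223 in TF group 1, 178, 151 and 186 in TF group 2, 155, 158 and 232 in TF group 3, and 1110, 1150 and 1230 in the negative control (5.63-fold, 6.8-fold and 6.53-fold lower). Slbp, which binds the stem-loop of histone mRNAs, read 1110, 1200 and 1160, then 959, 1040 and 1030, then 1210, 1270 and 1270 in TF groups 1, 2 and 3, and 2570, 2740 and 2430 in the negative control. Both genes were below the control on each TF array, with Slbp at -1.16, -1.36 and -1.04. Chaf1b, a subunit of the chromatin assembly factor that works behind the fork, was lower by -1.66, -1.86 and -1.66. Tipin, which protects the fork together with Timeless, read 629, 716 and 730 in TF group 1, 618, 559 and 627 in TF group 2, 617, 590 and 567 in TF group 3, and 2070, 2210 and 2470 in the negative control (-1.70, -1.90 and -1.92).

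**Figure D3:**
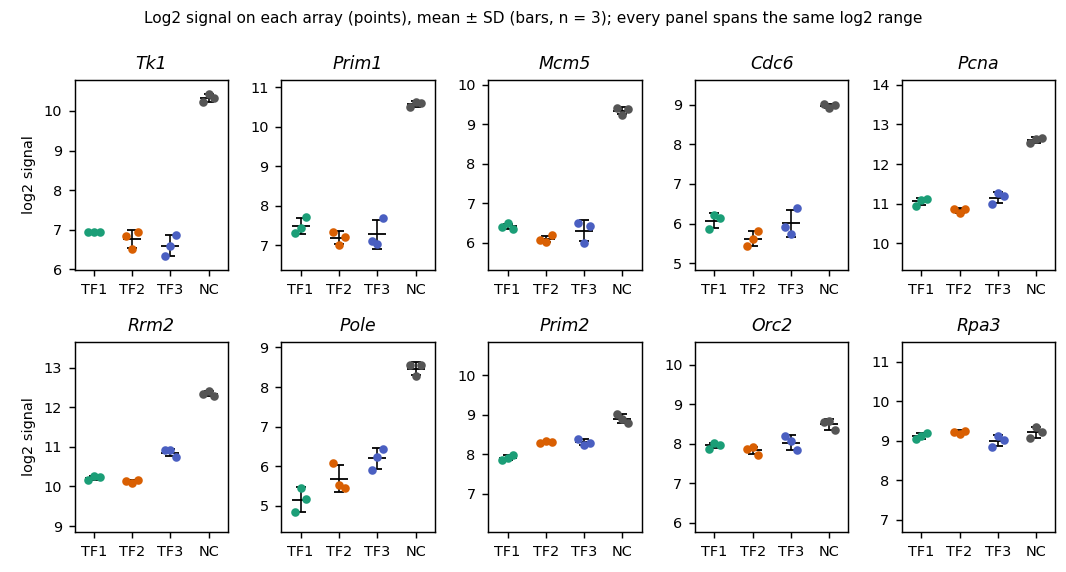
Log2 signal of 10 genes on each of the 12 arrays (points) in TF groups 1, 2 and 3 (TF1, TF2, TF3) and the negative control (NC), with mean and SD over 3 arrays. Tk1, Prim1, Mcm5 and Cdc6 have wide gaps between the TF arrays and the control arrays, Prim2 and Orc2 narrow ones, and the groups of Rpa3 overlap.

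Arrays of a group differed little in this gene group as a whole. The median of the 46 deviations from the control mean ran from -1.69 to -1.66 on the arrays of TF group 1, from -1.96 to -1.86 in TF group 2 and from -1.81 to -1.75 in TF group 3, against 0 to 0.02 on the control arrays. The median mean change was -1.83 over the 12 measured genes with an E2F word in a window and -1.73 over the 27 measured genes whose windows held none, with ranges of -3.08 to -1.38 and -3.57 to -0.05.

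**Figure D4:**
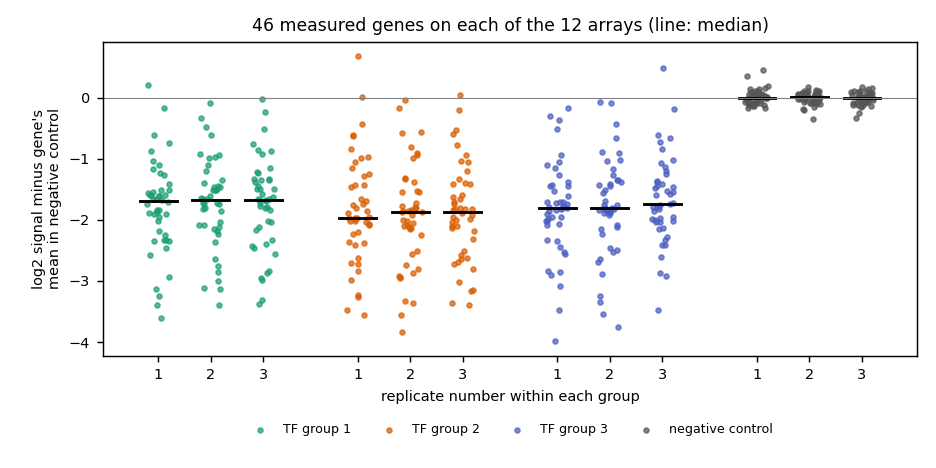
Log2 signal of each of the 46 genes on each array, minus the mean of the gene in the negative control, with the array median as a line. The TF medians lie between -1.96 and -1.66 on 9 arrays and those of the control arrays between 0 and 0.02.

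For 26 of the 46 genes the array has more than 1 probe set. Of the 37 probe sets not used for the calls above, 27, 29 and 26 were lower in TF groups 1, 2 and 3, and none was higher. Of the 30 that were not dim, 26, 28 and 26 were lower, and of the 7 dim ones 1, 1 and 0. Calls differed between the probe sets of a gene in at least 2 comparisons for Cdc7, Cdt1, Dbf4, Mcm10, Orc2, Pola2, Prim2, Rfc1 and Slbp. The second probe sets of Dbf4, Mcm10, Pola2 and Slbp were dim, as was 1 of the 3 of Cdt1, whereas those of Cdc7, Orc2, Prim2 and Rfc1 were not.

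The TF groups were close to each other. TF group 2 had the lowest mean for 31 of the 46 genes, TF group 3 for 9, TF group 1 for 6 and the negative control for none. The group with the lowest mean was not counted over all genes. Between TF group 2 and TF group 1 no member was called (3.87% of all genes were). An unadjusted limma p under 0.05 was found for 20 of the 46 members, a larger share than the 21.7% of all genes. The difference was negative, with TF group 2 lower, for 34 of the 46 members and for 6405 of all 12393 genes. The median difference of the members was -0.14, beside -0.01 over all genes. Between TF group 3 and TF group 2, 2 members were called (4.03% of all genes), and the median difference was 0.11. Between TF group 3 and TF group 1, 2 members were called (6.31% of all genes), with a median difference of -0.06. Members were thus called between TF groups about as often as other genes, or not at all. The calls do not count small shifts such as that of TF group 2 below TF group 1.

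Rrm2, the regulated small subunit of ribonucleotide reductase, was the gene called in both comparisons with TF group 3. It read 1930, 1920 and 1720 in TF group 3, against 1130, 1090 and 1150 on the arrays of TF group 2 and 1150, 1230 and 1200 on those of TF group 1, with 5200, 5430 and 4990 in the negative control. TF group 3 overlapped no other group and lay between the other TF groups, which overlapped, and the control. The difference was 0.72 against TF group 2 (adjusted p = 0.00019) and 0.64 against TF group 1 (adjusted p = 0.000263). With arrays scaled to the spikes these differences were 0.67 and 0.75 and were not called (adjusted p = 0.217 and 0.0937).

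Pole, whose array values are given above, differed by 1.04 ± 0.22 (SE) on the log2 scale between TF group 3, the higher one, and TF group 1 (adjusted p = 0.0124), with no overlap between the 3 arrays of each group and with signals of TF group 1 near the dim level. After 50 was added to every signal the difference was 0.52 and no longer passed the fold change. On its brighter probe set Mcm2 was lower in TF group 3 when set against TF group 2, with a difference of -1.02 ± 0.25 (adjusted p = 0.034), but the other probe set differed by 0.06 (adjusted p = 0.801). That call was lost with a fit to those 2 groups alone (adjusted p = 0.0564), with the mean of both probe sets (-0.48, adjusted p = 0.0768), and when TF group 1 replicate 1, any 1 array of TF group 2, or TF group 3 replicate 1 or 2 was left out.

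Other genes of the pathway, from a list drawn up by function, fell less uniformly. Of 60 measured, 30, 29 and 31 were lower in TF groups 1, 2 and 3, where 8.93%, 10.1% and 9.84% of all genes were called lower. Called higher were 1, 5 and 2, where 15.1%, 15.3% and 14.7% of all genes were called higher. Among 9 further genes of origin licensing and firing 4, 5 and 5 were lower, with the largest falls in Wdhd1, a fork scaffold (-1.88, -2.0 and -1.86), and Recql4, a helicase with a dim mean in TF group 2 (-1.46, -2.40 and -1.65). The call of Recql4 in TF group 1 was lost without TF group 1 replicate 3 or any 1 control array (-1.50 to -1.21), and that in TF group 3 without TF group 3 replicate 1 (-1.34). Among 14 further fork genes 7 were lower in each TF group, and Top2a, the topoisomerase of dividing cells, fell (-2.79, -3.40 and -2.94). Chtf18, of an alternative clamp loader, was dim on average. Its log2 changes were -2.36 (not called), -3.74 and -2.53, of which that of TF group 2 became -2.52 without TF group 2 replicate 2 (adjusted p = 0.0021), and the call of TF group 3 was lost when any 1 array other than TF group 2 replicate 2 or 3 was left out (adjusted p between 0.0528 and 0.145). Among 31 further genes of nucleotide synthesis 15, 13 and 15 were lower, led by Shmt1, which makes one-carbon units (-1.71, -1.75 and -1.14), and Dctpp1, which breaks down dCTP (-1.48, -1.60 and -1.53). Among 6 chromatin genes 4 were lower in each TF group, led by Hells, a remodeller (-1.89, -2.22 and -2.01), and Nasp, a histone chaperone (-2.06, -2.07 and -1.93).

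The genes of this list called higher were fewer than their share of all genes, and some were relatives of members that fell. Tk2, the mitochondrial thymidine kinase, was called higher in all 3 TF groups (0.67, 0.86 and 0.67), although with arrays centred on the median it was at 0.54 and 0.56 in TF groups 1 and 3, below the fold change of 1.5, and after scaling to the spikes it was at -0.22, 0.12 and -0.12. Rrm2b, the small reductase subunit that p53 induces and that serves resting cells, was called higher in TF groups 2 and 3 (0.79 and 0.70), with 0.52 in TF group 1, and was at 0.05 and -0.09 in TF groups 2 and 3 after that scaling. Pold4, the small subunit of polymerase delta, was called higher in TF group 2 at 0.59, which became 0.48 with that centring, 0.56 or 0.52 without TF group 2 replicate 2 or negative control replicate 1, and -0.15 with the spikes. Uck1, a uridine and cytidine kinase, was called higher in TF group 2 at 0.67, which became 0.57 with that centring, 0.58 without negative control replicate 2 and -0.07 with the spikes. Cda, a cytidine deaminase with a dim probe set, was at 1.01 in TF group 2 (adjusted p = 0.0468), and its call was lost with most other settings (adjusted p = 0.0656 with centring and 0.0856 with an intensity trend) and with every array left out except TF group 1 replicates 1 and 3 and negative control replicate 3. These rises are therefore relative to the other genes of an array.

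**Figure D5:**
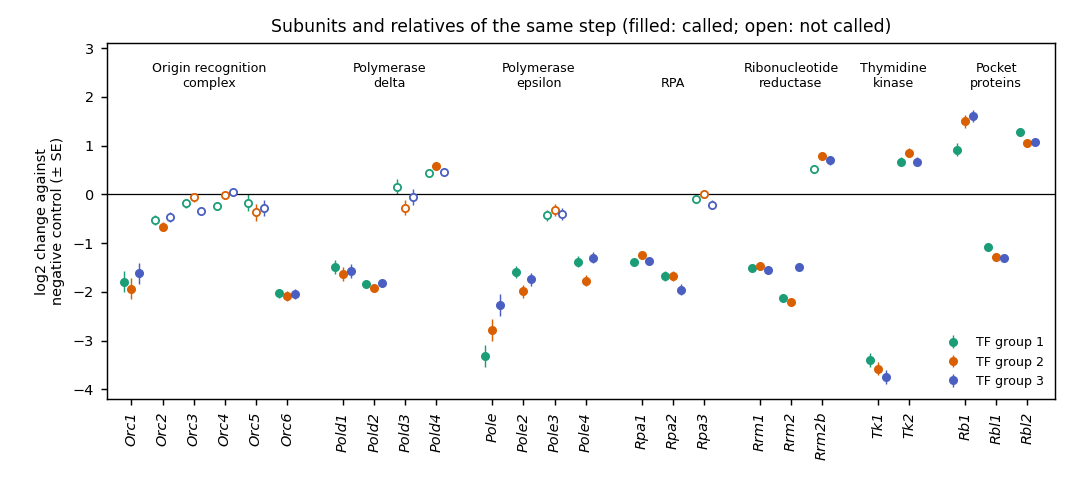
Log2 change against the negative control, with SE, of subunits or relatives that act in the same step, in TF group 1 (green), TF group 2 (orange) and TF group 3 (blue), as called (filled) or not called (open). Orc1 and Orc6 lie between -2.08 and -1.62 and Orc3, Orc4 and Orc5 between -0.37 and 0.06, Tk1 lies below -3 and Tk2 above 0, and Rbl1 lies below 0 where Rb1 and Rbl2 lie above it.

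Of 14 measured regulators of E2F-driven transcription, 7, 8 and 8 were lower in TF groups 1, 2 and 3 (8.93%, 10.1% and 9.84% of all genes). Higher were 2 in each, a share near that of all genes. Lower were E2f8, an atypical E2F (-2.10, -2.52 and -2.44), Mybl2, the MYB protein that works with the MuvB complex (-2.67, -2.30 and -2.08), and Rbl1, which encodes the pocket protein p107 (-1.08, -1.28 and -1.30). E2f1, an activating E2F, was at -0.53 (not called), -0.64 and -0.59, near the fold change of 1.5, and was called in no TF group with the mean of its probe sets (-0.32 and -0.24 in TF groups 2 and 3). In TF group 3 it fell below that fold change (-0.58 to -0.56) without TF group 3 replicate 1 or 3 or negative control replicate 1 or 2. In TF group 1 E2f1 was called lower with centring (-0.66), with quantile normalization (-0.6) and with the spikes (-1.43). Rbl2, which encodes p130, the pocket protein of resting cells, was higher by 1.28, 1.06 and 1.08, and by 0.38, 0.33 and 0.28 without a call after scaling to the spikes. Rb1 was higher by 0.92, 1.5 and 1.61 in TF groups 1, 2 and 3, and in TF group 1 it was at 0.02 with the spikes.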

How the data were processed

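The labels name 12 arrays (GeneChip 430A 2.0) of total RNA. The authors deposited 1 linear intensity per probe set and array. The paper and the submitters' notes name RMA in Partek, which gives log2 values, whereas the deposited intensities are linear with a trimmed mean of 500 on each array, so the method behind them is not known. No other per-sample columns were left aside (0).

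Intensities were taken to log2 in R 4.3.3 without further scaling. limma 3.58.1 (lmFit, contrasts, eBayes) estimated the 4 group means from the 12 arrays together, with Benjamini-Hochberg adjustment over 22626 probe sets per comparison, after 64 control probe sets had been set aside. A call needed a fold of more than 1.5 and an adjusted p under 0.05. Of these probe sets 20380 carried 1 gene symbol, 691 several and 1555 none. A gene was read from its brightest probe set with 1 symbol. The number of arrays (n = 3 per group) limits the precision, and p-values measure the spread between the labelled biological replicates. The steps were tested on simulated data.

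The members, the other gene lists and the markers were chosen with earlier results of these data known. Values on every array are given for the members with the largest and smallest fall per role, those not called in a TF group or called between TF groups, and those whose probe sets differed in at least 2 calls. In the other lists, the genes that rose and the 2 of a list that fell most are named. Orc3, Orc4, Orc5 and the regulators were chosen after their values were seen. Alternatives covered the model, scaling, thresholds, probe set choice, a replicate block and each array left out.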

Additional observations from a re-analysis of the deposited data

Results flagged for a closer look

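The control probe sets, which enter none of the comparisons, carried a signal that differed between the groups. The mean over 24 probe sets of the spiked poly-A transcripts was 8.16 on the log2 scale on the 9 TF arrays and 7.35 on the 3 negative control arrays, a difference of 0.81. Per array it ran from 8.17 to 8.28 in TF group 1, from 8.03 to 8.18 in TF group 2, from 8.08 to 8.23 in TF group 3 and from 6.99 to 7.79 in the negative control. For 3 probe sets of 18S rRNA the means were 12.32 on TF arrays and 11.13 on control arrays, a difference of 1.19. Each difference had p = 0.00455 in a two-sided exact permutation test, the smallest that the 220 splits of 9 against 3 arrays allow. Its part in the changes of the replication genes was not tested beyond the scaling to the spikes.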

How the results depend on the processing

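Besides the chosen fit, 14 alternatives and the omission of each of 12 arrays were run. The members called lower stayed between 38 and 46 in each TF group. The 38 came from a fold change over 2 in TF group 2. The 46 came from spike scaling in TF group 1. Under spike scaling 55.3%, 44.4% and 48.4% of all genes were called lower in TF groups 1, 2 and 3, against 8.93%, 10.1% and 9.84% with the chosen fit. For the other alternatives the share of all genes called lower was not counted. The members' medians in TF groups 1, 2 and 3 were -1.80, -2.0 and -1.87 with arrays centred on the median (which moved the median of all genes to -0.06, -0.04 and -0.06), -2.57, -2.63 and -2.55 with spike scaling and -1.46, -1.67 and -1.53 with an offset of 50, and -1.61 and -1.67 in TF groups 1 and 3 with the mean of a gene's probe sets. With each array left out, 43 to 44, 42 to 43 and 42 to 43 members were lower, with medians of -1.69 to -1.64, -1.94 to -1.88 and -1.80 to -1.72. Between TF groups, the members called (0 for TF group 2 versus 1, 2 for 3 versus 2, 2 for 3 versus 1) were 4, 9 and 4 with the adjusted p only. The share of all genes was not counted under that rule, so these counts cannot be set against the other genes. For TF group 3 versus 2 they were 1 with only these groups, 0 with spikes and 1 at a fold change over 2. For TF group 3 versus 1 they were 1 with spikes, with the offset and at that fold change. For TF group 2 versus 1 there was 1 (Mcm2) at the unadjusted p. With each array left out these counts were 0 to 1, 1 to 2 and 2 to 3. The gained calls were Cdt1 or Rfc5 for TF group 2 versus 1 (without TF group 1 replicate 1, 2 or 3 or TF group 2 replicate 1 or 3), Mcm6 for TF group 3 versus 2 (without TF group 3 replicate 2, and with the mean of probe sets) and Mcm10 for TF group 3 versus 1 (without TF group 1 replicate 1).

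Same-numbered arrays of different groups did not deviate together (r from -0.07 to 0.12 over 18 pairs, with the own number best in 11 of 36 comparisons), so the numbers were taken as names. With a replicate block, 43 members were lower in each TF group, and 1 in place of 2 was called between TF groups 3 and 2 (Mcm2 was lost, adjusted p = 0.0585). Outside the members, the block ended the call of Recql4 in TF group 1 (adjusted p = 0.0538) and added Chtf18 there (adjusted p = 0.0497).

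Directions reversed only for values near 0, for the dim Tyms or under spike scaling. In TF group 2 Rpa3 was at -0.10 with centring, -0.03 with quantile normalization, -0.73 with spikes and at -0.01 and -0.06 without TF group 2 replicate 3 or negative control replicate 1 (range -0.06 to 0.07 over arrays left out). Tyms in TF group 3 was at -0.03, -0.02 and -0.71 under these scalings and at -0.11 and -0.09 without TF group 3 replicate 3 or negative control replicate 2 (range to 0.31), in TF group 2 at 0.24 and 0.12 without TF group 2 replicate 2 or negative control replicate 1 (range from -0.50), and in TF group 1 at 0.11 without the last (range from -0.29). Orc4 in TF group 3 was at -0.05 with centring and -0.73 with spikes, and without TF group 2 replicate 3 Orc3 and Orc4 were at 0.01 in TF group 2 (ranges from -0.12 and -0.06). With spikes, Pold4, Rrm2b, Tk2, Cda and Uck1 were at -0.46, -0.38, -0.22, -0.50 and -0.39 in TF group 1 and at -0.33, -0.09, -0.12, -0.11 and -0.42 in TF group 3, and Pold4 and Uck1 at -0.15 and -0.07 in TF group 2. The cause of these shifts was not tested. Signals below 32 limit what Tyms, Cda and Chtf18 can show.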
